A study of Mus musculus with 8 samples.

Results

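The genes described here are the integrin alpha and beta subunits, the laminin chains and the nidogens, taken by gene symbol from probe sets that carry a single symbol in the platform annotation. They number 38 of the 19938 genes measured: 18 alpha subunits, 8 beta subunits, 10 laminin chains and 2 nidogens. Itgad was the only member with more than 1 probe set, and its probe set with the highest mean was used.

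Integrins are adhesion receptors of the cell surface, each made of an alpha and a beta subunit, and laminins are the matrix proteins that many of them bind. A laminin is a trimer of an alpha, a beta and a gamma chain, and nidogens link the laminin network of a basement membrane to its collagen IV network. In muscle, laminin holding the Lama2 chain surrounds the fibre, and the subunits encoded by Itga7 and Itgb1 form a laminin receptor of myoblasts and muscle fibres.

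RNA came from cultured mouse primary myoblasts, muscle precursors derived from satellite cells, and was hybridised to Affymetrix MoGene 1.0 ST arrays. The groups were 4 arrays labelled Runx1f/f and 4 arrays labelled WT. Runx1 encodes a transcription factor, the f/f in the name commonly marks floxed alleles, and the treatment label calls this group knockout. Both groups are of C57bl/6 background, and the cells came from gastrocnemius muscles at 2 to 3 weeks of age. No label states which driver or agent would delete Runx1, which exons are removed, or whether animals were pooled. The labels call the arrays biological replicates 1 to 4 of each genotype.

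The deposited columns limit what can be compared. In every row 3 column sets, namely Runx1f/f 1 with 2, Runx1f/f 3 with 4, and all 4 WT columns, had means that agreed to within 7.5e-05. The labelled genotypes therefore have the same mean by construction, and the 8 arrays are not 8 independent values. The arrays instead stood apart by number. In both labels, those numbered 2 and 3 lay on the positive side of the leading principal component and those numbered 1 and 4 on the negative side. For Runx1f/f part of this is fixed, because arrays 1 and 2, like arrays 3 and 4, deviate oppositely from a shared mean. What the numbers stand for beyond replicates is not given in the labels, so a difference between them cannot be read as a genotype difference. Each column was named by the sample accession in its header. Whether columns and labels are matched correctly was not tested, and every value and count given by label rests on that match. Runx1 itself read 9.98 and 9.89 in Runx1f/f 2 and 3 and 9.99 and 10.27 in WT 2 and 3, against 9.35 and 9.44 in Runx1f/f 1 and 4 and 9.15 and 9.25 in WT 1 and 4. It thus followed the numbers and not the labels.

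Levels are log2 intensities, and signals of different probe sets are not comparable as amounts of RNA. Array medians were 4.39 to 4.41, and a mean over the 8 arrays under 5 is called dim here. In bulk samples such as these, fewer cells of a type and less RNA per cell cannot be told apart.

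The labelled cell type was checked against its markers. Of 8 myoblast markers, 7 had a mean of at least 5, among them the transcription factors Pax7 at 6.83 to 7.19 and Myod1 at 11.12 to 11.57 over the 8 arrays and the muscle cadherin Cdh15 at 9.90 to 10.38. The dim one was Chodl, at 3.26 to 3.52. All 9 leukocyte, 7 endothelial, 3 platelet and 4 epithelial markers measured were dim, with the leukocyte gene Ptprc at 3.52 to 3.68, the endothelial gene Cdh5 at 3.46 to 3.57, the platelet gene Pf4 at 3.94 to 4.04 and the epithelial gene Epcam at 3.60 to 3.73. All 4 Schwann and neural markers measured were dim as well. Of 8 fibroblast markers, 6 were dim, and the collagen genes Col1a2 at 9.13 to 10.39 and Col3a1 at 8.60 to 9.21 were not. Of 6 pericyte and smooth muscle markers, 4 were dim, and Rgs5 at 7.89 to 8.96 and Mcam at 5.46 to 6.59 were not. Among the 10 markers of differentiating muscle 0 were dim, with the embryonic myosin gene Myh3 at 11.49 to 12.37 and the actin gene Acta1 at 12.20 to 13.00.

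Of the 38 members, 19 were not dim. These were the alpha subunits Itga3, Itga4, Itga5, Itga6, Itga7 and Itgav, the beta subunits Itgb1, Itgb4, Itgb5, Itgb6 and Itgb8, the laminin chains Lama2, Lama5, Lamb1, Lamb2, Lamb3 and Lamc1, and both nidogens. The dim members included the leukocyte integrin genes Itgal, Itgam, Itgax and Itgb2, the platelet subunit Itga2b, the collagen receptor subunits Itga1, Itga2, Itga10 and Itga11, and the laminin chains Lama1, Lama3, Lama4 and Lamc3. The remaining dim members were Itgad, Itgae and Itgb7, of leukocyte integrins, Itga8 and Itga9, which pair with the Itgb1 product, and Itgb3. Values of the dim members ran from 3.24 to 5.08.

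Between the labelled genotypes the deposited values held no difference in any member. Of the 38 members, 0 were called by limma with Benjamini-Hochberg adjustment, 0 had an unadjusted p under 0.05, and the background over all 19938 genes was 0.0%. The largest absolute difference among members was 3.75e-05 and the smallest limma p was 0.99971. Itgb1 was at 11.10 ± 0.16 in Runx1f/f and 11.10 ± 0.07 in WT arrays, and Itgb4 was at 7.41 ± 0.64 in Runx1f/f and 7.41 ± 0.93 in WT arrays. These values follow from the equal column means and do not measure an effect of Runx1.

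Arrays 2 and 3 were then set beside arrays 1 and 4, as a description with no test, because this grouping was proposed with the values known. The description uses whether the 4 arrays of one side and the 4 of the other overlap, and whether their means differ by more than 1.5-fold. No overlap and over 1.5-fold held for 1 member higher in arrays 2 and 3, Lamb3, against 2.16% of all genes, and for 1 member lower, Itgb4, against 0.727% of all genes. Regardless of size, 5 of 38 members were higher without overlap, against 9.87% of all genes, and 5 were lower, against 10.5%. Among the 19 members that were not dim, 1 was higher over 1.5-fold without overlap and 1 lower, where 3.97% and 1.41% of the 8949 genes that were not dim were so. Without a limit on size, 2 of those 19 were higher and 4 lower, beside 14.6% and 16.9%. These member counts are small, and a single gene moves them. The median difference over the members was 0.04, beside -0.01 over all genes, and over the 19 members that were not dim it was 0.15, beside -0.02 over the genes that were not dim.

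**Figure D1:**
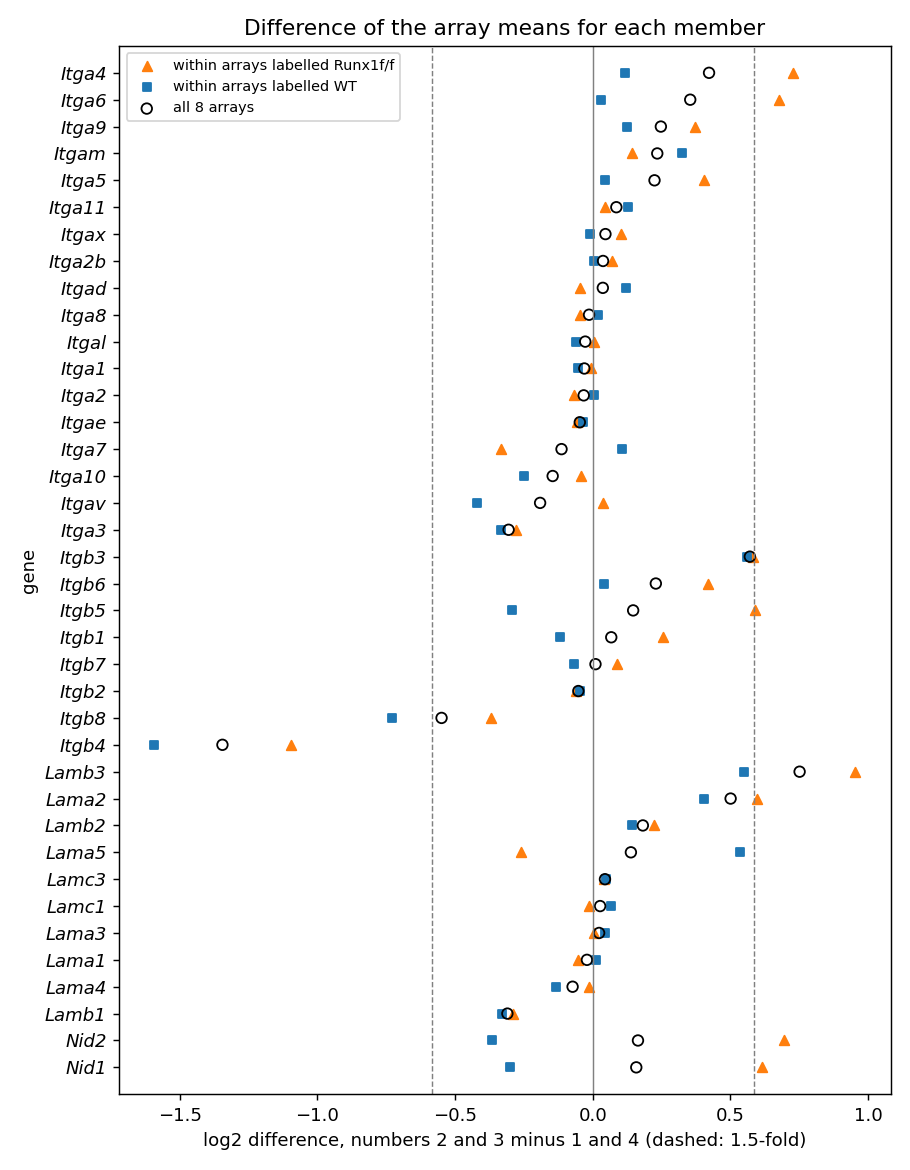
Difference of the means of arrays 2 and 3 minus arrays 1 and 4 on the log2 scale for each of the 38 members (horizontal axis), over all 8 arrays (circles), within the arrays labelled Runx1f/f (triangles) and within those labelled WT (squares), with dashed lines at 1.5-fold. Itgb4 lies farthest to the left, at -1.34, and Lamb3 farthest to the right of the circles, at 0.75, while the triangles and squares of Nid1, Nid2, Itgb1, Itgb5 and Lama5 fall on opposite sides of 0.

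To show the sequence before the transcription start of members that separated by number, 3 promoters are printed from RefSeq (GRCm38.p6), each 300 bases and 5′ to 3′ on the gene's strand. They are the 3 separated members with the largest absolute differences among those that were not dim and have a promoter in the table, the upstream of 2 starts for Lamb3, and capitals mark every match to CANNTG, the E-box letters bound by MyoD and its relatives.
Lamb3 (chr1:193301744-193302043, plus strand): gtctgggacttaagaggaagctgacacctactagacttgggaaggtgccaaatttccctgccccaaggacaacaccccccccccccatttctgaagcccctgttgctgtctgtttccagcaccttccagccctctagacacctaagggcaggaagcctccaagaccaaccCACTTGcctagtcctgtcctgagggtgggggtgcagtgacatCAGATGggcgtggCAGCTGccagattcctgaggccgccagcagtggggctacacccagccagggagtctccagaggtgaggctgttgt
Lama2 (chr10:27616893-27617192, minus strand): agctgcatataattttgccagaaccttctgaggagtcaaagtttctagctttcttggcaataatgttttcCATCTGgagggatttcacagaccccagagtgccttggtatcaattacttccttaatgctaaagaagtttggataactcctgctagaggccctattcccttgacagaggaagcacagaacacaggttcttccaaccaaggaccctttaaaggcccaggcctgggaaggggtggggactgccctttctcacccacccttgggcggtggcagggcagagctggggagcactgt
Itgb8 (chr12:119238227-119238526, minus strand): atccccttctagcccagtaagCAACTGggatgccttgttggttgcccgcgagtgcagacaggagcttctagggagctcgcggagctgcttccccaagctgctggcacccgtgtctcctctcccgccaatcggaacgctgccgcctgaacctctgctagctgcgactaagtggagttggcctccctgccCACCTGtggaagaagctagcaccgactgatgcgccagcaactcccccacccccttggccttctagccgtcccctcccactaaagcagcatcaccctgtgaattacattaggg
The printed promoters of Lamb3, Lama2 and Itgb8 held 3, 1 and 2 E-box matches. None of the 3 held TGTGGT or TGCGGT, the letters of a Runx site, on either strand, and none held TGANTCA, the letters of an AP-1 site, to which c-Jun binds. Among 32851 promoters of the same length, 72.3% held an E-box match, 22.4% a Runx match and 7.81% an AP-1 match, searched on both strands. The table held 27 promoters of 24 members, of which 22, 5 and 3 had a match to the E-box, Runx and AP-1 letters. Among separated members not printed, 1 of 2 promoters of Itga3 held 1 Runx and 1 AP-1 match, and that of Itga9 held 1 AP-1 match. An absent match says only that these letters are not in the window.

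Itgb4 encodes the beta subunit that pairs with the Itga6 product into the laminin receptor of epithelial hemidesmosomes. Its probe set, 10382713, read 6.96 and 6.76 in Runx1f/f 2 and 3 and 6.76 and 6.47 in WT 2 and 3, against 7.86 and 8.06 in Runx1f/f 1 and 4 and 8.30 and 8.11 in WT 1 and 4. All 4 arrays numbered 2 and 3 were below all 4 numbered 1 and 4, with a gap of 0.90 between the sides. Means were 6.74 ± 0.20 in arrays 2 and 3 and 8.08 ± 0.18 in arrays 1 and 4 (SD, n = 4 each), a difference of -1.34, or 2.54-fold, which ranked 114 among 19938 genes by absolute size. No overlap fixes the sign in each of the 3 column sets. The sizes there were -0.90 for Runx1f/f 2 minus 1, -1.30 for Runx1f/f 3 minus 4, and -1.59 within WT. The partner gene Itga6 read 10.40 and 10.55 in Runx1f/f 2 and 3 and 10.28 and 10.02 in WT 2 and 3, against 9.87 and 9.72 in Runx1f/f 1 and 4 and 10.33 and 9.90 in WT 1 and 4. Its means differed in the other direction, by 0.35, and the sides overlapped, since WT 1 was above both WT 2 and WT 3.

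Itgb8, whose product pairs with the alpha v subunit and is known for activating latent TGF-beta, followed Itgb4 at a smaller size. It read 5.14 and 5.31 in Runx1f/f 2 and 3 and 5.07 and 5.01 in WT 2 and 3, against 5.68 and 5.51 in Runx1f/f 1 and 4 and 5.85 and 5.70 in WT 1 and 4. The sides did not overlap, and the difference of -0.55 fell just short of 1.5-fold. Itgb3, which encodes another beta partner of alpha v, read 4.24 and 4.69 in Runx1f/f 2 and 3 and 4.26 and 4.64 in WT 2 and 3, against 4.11 and 3.66 in Runx1f/f 1 and 4 and 3.85 and 3.94 in WT 1 and 4. It was higher in arrays 2 and 3 without overlap, by 0.57, also just short of 1.5-fold, and both of its means were dim. Its difference was uneven, 0.13 for Runx1f/f 2 minus 1 and 1.03 for Runx1f/f 3 minus 4.

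The remaining beta subunits that were not dim did not separate by number. Itgb1, the common partner of most laminin- and collagen-binding alpha subunits, read 11.27 and 11.18 in Runx1f/f 2 and 3 and 11.02 and 11.06 in WT 2 and 3, against 10.93 and 11.02 in Runx1f/f 1 and 4 and 11.19 and 11.13 in WT 1 and 4. Its 8 arrays spanned 0.34, and the sides overlapped. Itgb6, best known from epithelia, read 8.70 and 8.16 in Runx1f/f 2 and 3 and 8.33 and 8.15 in WT 2 and 3, against 7.74 and 8.28 in Runx1f/f 1 and 4 and 8.38 and 8.01 in WT 1 and 4, with the highest and the lowest values in Runx1f/f 2 and Runx1f/f 1. Itgb2 and Itgb7, the beta subunits of leukocyte integrins, stayed at 3.42 to 3.57 and 3.49 to 3.76.

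**Figure D2:**
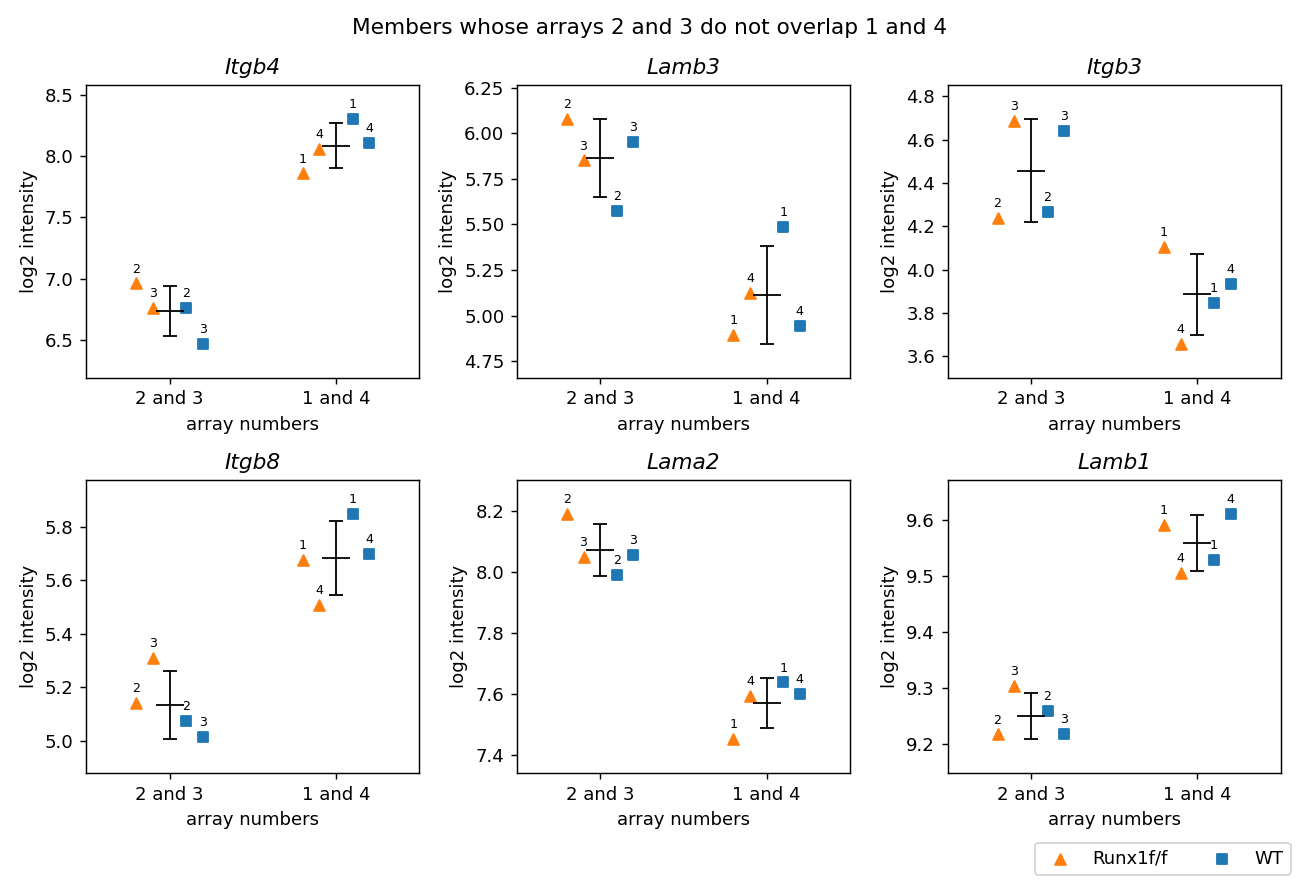
Log2 intensity (vertical axis) of 6 members whose arrays numbered 2 and 3 (left) did not overlap arrays numbered 1 and 4 (right). Triangles are arrays labelled Runx1f/f, squares arrays labelled WT, each marked with its number, and bars give the mean ± SD of 4 arrays. The gap is widest for Itgb4, at 0.90, and narrowest for Lamb3, at 0.09, where WT 1 lies close to WT 2.

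Among alpha subunits, Itga3, which encodes a laminin receptor subunit, was lower in arrays 2 and 3 without overlap. It read 7.31 and 7.27 in Runx1f/f 2 and 3 and 7.19 and 7.33 in WT 2 and 3, against 7.54 and 7.59 in Runx1f/f 1 and 4 and 7.52 and 7.67 in WT 1 and 4, a difference of -0.31. The same holds for the dim Itga10, at -0.15, whereas the dim Itga9 and Itgam were higher without overlap, by 0.25 and 0.23.

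Itga7, the laminin receptor subunit of muscle, read 10.10 and 9.98 in Runx1f/f 2 and 3 and 10.30 and 10.22 in WT 2 and 3, against 10.31 and 10.43 in Runx1f/f 1 and 4 and 10.07 and 10.23 in WT 1 and 4. Runx1f/f 2 and 3 were below Runx1f/f 1 and 4, but WT 1 was below WT 2 and 3, so that the sides overlapped and the difference was -0.11, or -0.18 to -0.06 with 1 array left out. Itgav, the alpha v subunit of vitronectin and fibronectin receptors, read 9.19 and 9.15 in Runx1f/f 2 and 3 and 8.94 and 8.95 in WT 2 and 3, against 9.11 and 9.15 in Runx1f/f 1 and 4 and 9.47 and 9.25 in WT 1 and 4. WT 1 stood highest, and the 4 Runx1f/f arrays lay within 0.08 of each other.

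Itga4, which pairs with the Itgb1 product to bind fibronectin and Vcam1, read 9.07 and 9.18 in Runx1f/f 2 and 3 and 9.01 and 8.63 in WT 2 and 3, against 8.45 and 8.35 in Runx1f/f 1 and 4 and 9.04 and 8.36 in WT 1 and 4. Runx1f/f arrays separated by 0.73, whereas WT arrays differed by 0.12 with WT 1 above WT 3. Itga5, the fibronectin receptor subunit, separated within Runx1f/f arrays by 0.41 and differed by 0.04 within WT. Those 2 genes and Itga6 were among the 10 of 38 members (26.3%) that were higher in arrays 2 and 3 in each of the 3 column sets, beside 16.8% of all genes. Those lower in each of the 3 sets were 6 of 38 (15.8%), beside 19.6% of all genes. Of the 19 members that were not dim, 6 (31.6%) were higher in each set, beside 20.7% of genes that were not dim. Lower in each set were 4 of those 19 (21.1%), beside 25.4%.

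**Figure D3:**
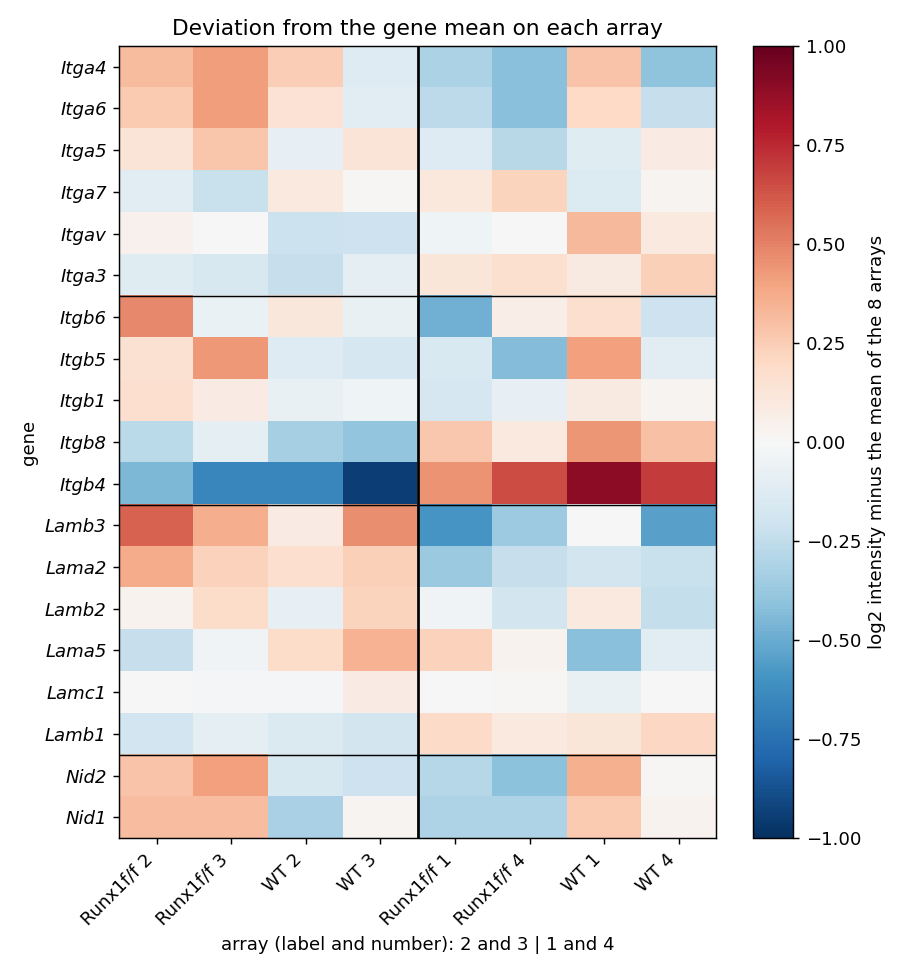
Deviation of each array from the gene's mean over the 8 arrays (colour, log2 scale) for the 19 members that were not dim, with arrays numbered 2 and 3 left of the line and arrays 1 and 4 right of it. Itgb4 and Itgb8 are low on the left and high on the right, Lamb3 and Lama2 the reverse, and Nid1, Nid2 and Itgb5 are high in Runx1f/f 2, Runx1f/f 3 and WT 1.

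Of the laminin chains, Lamb3 differed most by number. It encodes the beta chain of an epithelial laminin that binds the receptor holding the Itgb4 product, and its probe set, 10352838, read 6.08 and 5.85 in Runx1f/f 2 and 3 and 5.57 and 5.95 in WT 2 and 3, against 4.90 and 5.13 in Runx1f/f 1 and 4 and 5.49 and 4.94 in WT 1 and 4. The sides did not overlap, though only 0.09 separated WT 1 from WT 2. Means were 5.86 ± 0.21 in arrays 2 and 3 and 5.11 ± 0.27 in arrays 1 and 4 (SD, n = 4 each), a difference of 0.75, or 1.68-fold, which ranked 394 among all genes. Within WT arrays the difference was 0.55, under 1.5-fold, and within Runx1f/f arrays it was 0.95. Lama3, the alpha chain of the same laminin, was dim at 3.27 to 3.47 in all arrays.

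Lama2, the alpha chain of the muscle basement membrane, read 8.19 and 8.05 in Runx1f/f 2 and 3 and 7.99 and 8.06 in WT 2 and 3, against 7.45 and 7.59 in Runx1f/f 1 and 4 and 7.64 and 7.60 in WT 1 and 4. The sides did not overlap, with a gap of 0.35, and the difference of 0.50 was 1.42-fold. Lamb1, a widely expressed beta chain, was lower in arrays 2 and 3 without overlap, reading 9.22 and 9.30 in Runx1f/f 2 and 3 and 9.26 and 9.22 in WT 2 and 3, against 9.59 and 9.51 in Runx1f/f 1 and 4 and 9.53 and 9.61 in WT 1 and 4. Its difference of -0.31 was small, but arrays on the same side differed by at most 0.11. Lamb2, the beta chain of laminin at the neuromuscular junction, read 7.59 and 7.74 in Runx1f/f 2 and 3 and 7.47 and 7.78 in WT 2 and 3, against 7.52 and 7.37 in Runx1f/f 1 and 4 and 7.65 and 7.32 in WT 1 and 4, and the sides overlapped. Lamc1, the gamma chain shared by most laminins, was the steadiest of the chains that were not dim, at 7.39 to 7.55.

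Lama5, an alpha chain of many adult basement membranes, read 7.13 and 7.33 in Runx1f/f 2 and 3 and 7.54 and 7.71 in WT 2 and 3, against 7.59 and 7.39 in Runx1f/f 1 and 4 and 6.94 and 7.24 in WT 1 and 4. Within Runx1f/f arrays, numbers 2 and 3 were below 1 and 4, with a difference of -0.26, and within WT arrays they were above, with a difference of 0.54. The 3 dim chains not yet given, Lama1, Lama4 and Lamc3, stayed at 3.44 to 3.56, 3.36 to 3.60 and 3.37 to 3.54.

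The nidogens, which bridge laminin and collagen IV, showed the reverse order. Nid1 read 7.62 and 7.63 in Runx1f/f 2 and 3 and 6.99 and 7.35 in WT 2 and 3, against 7.01 and 7.01 in Runx1f/f 1 and 4 and 7.58 and 7.36 in WT 1 and 4. Nid2 read 8.73 and 8.85 in Runx1f/f 2 and 3 and 8.29 and 8.24 in WT 2 and 3, against 8.16 and 8.03 in Runx1f/f 1 and 4 and 8.80 and 8.45 in WT 1 and 4. Runx1f/f 2 and 3 together with WT 1 held the 3 highest Nid2 values, and the lowest were in Runx1f/f 1 and 4. The differences within Runx1f/f arrays were 0.62 for Nid1 and 0.69 for Nid2, and within WT arrays they were -0.30 and -0.37. Itgb5 read 6.68 and 6.97 in Runx1f/f 2 and 3 and 6.40 and 6.37 in WT 2 and 3, against 6.38 and 6.09 in Runx1f/f 1 and 4 and 6.94 and 6.42 in WT 1 and 4, again with Runx1f/f 3 and WT 1 highest. Opposite order without overlap in both labels was found in 5 of 38 members (Nid1, Nid2, Itgb1, Itgb5 and Lama5), against 8.31% of all genes. All 5 were among the 19 that were not dim, where the background was 7.9%.

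**Figure D4:**
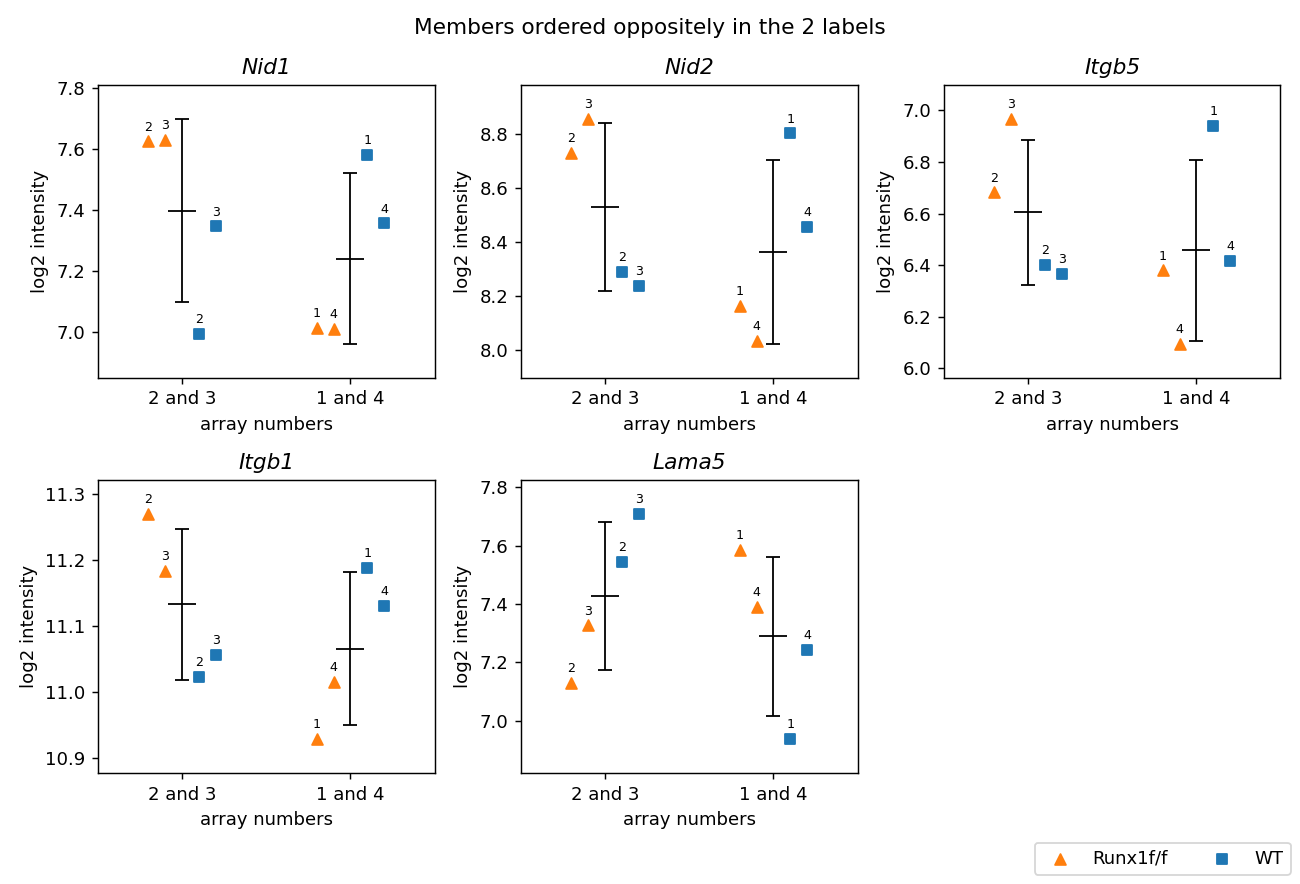
Log2 intensity (vertical axis) of the 5 members whose order by number was opposite in arrays labelled Runx1f/f (triangles) and WT (squares), with arrays numbered 2 and 3 left and 1 and 4 right; each point carries its number, and bars give the mean ± SD of 4 arrays. In Nid2, Runx1f/f 2 and 3 at 8.73 and 8.85 lie beside WT 1 at 8.80.

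Counted by label, over 1.5-fold without overlap was met by more members in Runx1f/f arrays. There 7 of 38 were higher in numbers 2 and 3 (Itga4, Itga6, Itgb5, Lama2, Lamb3, Nid1 and Nid2), against 2.36% of all genes, and Itgb4 was lower, against 0.747%. Within WT arrays 0 were higher, against 2.83%, and 2 were lower, Itgb4 and Itgb8, against 1.89%. All of these members were among the 19 that were not dim. The shares beside them include dim genes, and within a label no share over genes that were not dim is given here. In Runx1f/f arrays the equal means of the column sets make arrays 1 and 2 mirror images of each other, as well as arrays 3 and 4. These 4 values therefore hold less information than 4 independent arrays. Numbers 2 and 3 do not overlap 1 and 4 there whenever 2 minus 1 and 3 minus 4 share a sign. The WT columns are not mirrored, so no overlap alone, without the fold limit, is easier to meet in Runx1f/f arrays. With the fold limit, the shares of all genes were 2.36% and 0.747% in Runx1f/f arrays, below the 2.83% and 1.89% in WT arrays. The counts of the labels are not directly comparable. Whether the labels differ was not tested.

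Genes that work with these receptors were read in the same way. In a list of cytoplasmic integrin partners, 26 of 28 genes were measured, 4 of them dim, and 0 were called by limma between the labels. Over 1.5-fold without overlap, 4 were higher in arrays 2 and 3 and 1 was lower. The shares were 2.16% and 0.727% over all genes, and 3.97% and 1.41% over genes that were not dim. At any size, 5 were higher without overlap and 6 lower, beside 14.6% and 16.9% of genes that were not dim. The median difference of the list was -0.01, equal at this precision to that of all genes. Itgb1bp2, the muscle protein melusin that binds the Itgb1 tail, had 9.49 ± 0.19 in arrays 2 and 3 and 8.50 ± 0.25 in arrays 1 and 4 (SD, n = 4 each). The tensin gene Tns1 was higher by 0.95, the talin gene Tln2 by 0.74 and Fermt2, which encodes kindlin-2, by 0.64. Ptk2b, a kinase related to focal adhesion kinase, was the lower one, with 5.31 ± 0.27 in arrays 2 and 3 and 6.54 ± 0.24 in arrays 1 and 4 (SD, n = 4 each).

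The basement membrane list had a median difference of 0.14, and 11 of its 19 genes were dim. At any size, 7 were higher without overlap and 2 lower, beside 9.87% and 10.5% of all genes. Over 1.5-fold without overlap, 2 were higher and 0 lower, beside 2.16% and 0.727% of all genes. The 2 higher ones were the collagen IV chain genes Col4a1 and Col4a2, which lie side by side and share a promoter region. Col4a1 read 7.64 and 7.61 in Runx1f/f 2 and 3 and 7.26 and 7.90 in WT 2 and 3, against 6.16 and 6.19 in Runx1f/f 1 and 4 and 5.99 and 6.45 in WT 1 and 4. Both sides were well apart, and the difference was 1.41 for Col4a1 and 1.17 for Col4a2. In the list of matrix ligands, 11 of 22 were dim. By the same rule 1 was higher, Adam12, a disintegrin protease of muscle cells, by 1.37. The 2 lower were Thbs1 at -1.53 and Ccn1 at -0.96, again beside 2.16% and 0.727% of all genes. At any size, 2 of the 22 were higher without overlap and 3 lower, beside 9.87% and 10.5% of all genes. Among 17 other laminin receptors and partners, of which 0 were dim, 1 was higher over 1.5-fold without overlap and 0 were lower. The higher one was Bcam, a receptor for the Lama5 chain, by 0.84. At any size, 2 of the 17 were higher without overlap and 6 lower, beside 14.6% and 16.9% of genes that were not dim. Those lower were Sdc1, Sdc2, Sdc4, Pomt1, Cd63 and Tspan4. Dag1, which encodes dystroglycan, the main laminin receptor outside the integrins, overlapped between the sides and differed by 0.22. Median differences were -0.01 for the matrix ligands and -0.08 for the other laminin receptors and partners. Of these 3 lists, as in the first, 0 genes were called by limma.

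Muscle differentiation markers also divided by number. Of 10, 4 were higher in arrays 2 and 3 over 1.5-fold without overlap (Myog, Ckm, Myh8 and Tnnt1) and 0 were lower. The shares were 2.16% and 0.727% over all genes, and 3.97% and 1.41% over genes that were not dim. At any size 8 were higher without overlap, beside 9.87% of all genes and 14.6% of those not dim. The median of the list ran from 11.25 to 11.64 in arrays 2 and 3 and from 10.72 to 11.17 in arrays 1 and 4. The myogenic factor gene Myf5 differed by -0.89, the only one of 8 myoblast markers past the rule. Of 6 pericyte and smooth muscle markers, 3 were higher by that rule (Cspg4, Pdgfrb and Mcam) and 0 lower, beside 2.16% and 0.727% of all genes. Rgs5, which was not dim, overlapped between the sides with a difference of -0.49, and the dim Myh11 and Cnn1 differed by -0.03 each. The list median was 4.34 to 4.72 in arrays 2 and 3 and 3.83 to 4.02 in arrays 1 and 4. Of the fibroblast, leukocyte, endothelial, Schwann, platelet and epithelial markers, 0 passed in either direction. The part of differentiation or of other cells in the differences of Itgb4, Lamb3, Lama2 and the other members was not tested.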

How the data were processed

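Each deposited value is a log2 intensity of a probe set on an array, made by the authors with RMA and Partek per the submitters' processing notes, which give no versions. RMA corrects background, quantile-normalizes arrays together and summarizes probes. The equal means of column sets are recorded in no label. Of 35399 rows, 21789 had 1 gene symbol in the platform annotation, giving 19938 genes, each represented by the probe set of highest mean. All 39 member rows matched RefSeq gene IDs, with 0 symbols changed. No dim gene was removed.

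Runx1f/f and WT were compared in R 4.3.3 using limma 3.58.1 (lmFit, eBayes, two-sided, Benjamini-Hochberg over all genes, threshold 0.05), after the script was tested on simulated data. Values were taken on all 8 arrays for members past 1.5-fold without overlap and for those with the highest means in each class, with other separated members added, and from other lists for genes past that rule. The members, lists and the grouping by number were chosen with earlier results of these data known. Same-numbered arrays of the 2 labels deviated together, with correlations over all genes of 0.39, 0.46, 0.60 and 0.57. Each value is above 0.1, so an alternative fit took the number as a block, although no label states a pairing. Other alternatives were scalings, probe set and dim-gene choices, variance model, thresholds, column-set centring, each label alone and each array left out. The number of arrays limits the precision. No scanner file was used here. The labels call the replicates biological without naming separate cultures or animals.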

Additional observations from a re-analysis of the deposited data

Results flagged for a closer look

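An array far from the other 3 of its label was looked for in 76 groups of 4 values, of which chance marks about 5%. In the 38 groups labelled Runx1f/f no mark can occur, because the columns are mirror images. Marked were WT 1 for Itgb5, at 6.94 beside 6.40, 6.37 and 6.42 in WT 2 to 4, and WT 1 for the dim Itga1, at 3.80 beside 3.68, 3.70 and 3.68.

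For 5 members the difference of numbers 2 and 3 minus 1 and 4 had opposite signs in the labels with no overlap in either. This contrast between labels was not tested. Nid1 differed by 0.62 within Runx1f/f and -0.30 within WT, and Nid2 by 0.69 and -0.37. Itgb5 differed by 0.59 within Runx1f/f and -0.29 within WT, and Itgb1 by 0.26 and -0.12. Lama5 had the reverse signs, -0.26 within Runx1f/f and 0.54 within WT.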

How the results depend on the processing

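With the replicate number as a block, 0 members were called by limma and 0 had an unadjusted p under 0.05, as in the fit without the block, and the block changed no call. The count of called members was also 0 under each other alternative run. Equal column means fix this for the settings that keep all columns, so the counts show no robustness. By number, Lamb3 alone was higher and Itgb4 alone lower under both scalings, the mean over probe sets, the column-set centring and the dim filter. Of these settings only the scalings could change either gene, since the others leave the values of Lamb3 and Itgb4 as they were. At 2-fold, 0 were higher and 1 lower. Within Runx1f/f arrays 7 were higher and 1 lower, and within WT arrays 0 were higher and 2 lower. With 1 array left out, the count of higher members ranged from 1 to 2 and that of lower members from 1 to 2. It was 2 higher without Runx1f/f 1, Runx1f/f 2, WT 2 or WT 4, which add Itgb3, and without WT 1, which adds Itga4. It was 2 lower without Runx1f/f 3 or Runx1f/f 4, which add Itgb8. The median difference of the members lay between 0.02 and 0.15 over the alternatives, 0.15 being that of the members that were not dim. Differences of the 15 named members moved by less than the array spread in 192 of 210 recomputations. The 18 that moved further were among the 30 within 1 label. The 15 under column-set centring and the 15 under the mean over probe sets could not move. Leaving out Runx1f/f 1 or its mirror image 2 gave nearly the same differences, as did 3 or 4, so the 192 overstate stability. With 1 array left out, differences of overlapping named members still varied over 1.5 times between the smallest and the largest. Among alpha subunits, Itga7 ran from -0.18 to -0.06, Itgav from -0.24 to -0.12, Itga4 from 0.35 to 0.59 and Itga6 from 0.27 to 0.48. Among beta subunits, Itgb1 ran from 0.02 to 0.11 and Itgb6 from 0.11 to 0.32. Lamb2 ran from 0.13 to 0.24, Lamc1 from 0.0040 to 0.04, Nid1 from 0.08 to 0.29 and Nid2 from 0.055 to 0.31. Detection values were not analysed here, so signal over background limits the dim members to a description.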
